A study of Mus musculus with 4 samples.

Results

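Sertoli cells, the somatic cells that line the seminiferous tubules, were followed through 10 marker genes, chosen by name. They were Sox9, Wt1, Gata1, Gata4 and Rhox5, which encode transcription factors, Fshr, which encodes a receptor, Amh, Clu and Trf, which encode secreted proteins, and Cldn11, which encodes a tight junction protein. All 10 were found by symbol among the 22808 genes of the RNA-seq table. Total testis RNA, depleted of ribosomal RNA, was sequenced from Piwil1+/- and from Piwil1-/- mice at postnatal day 23, with 1 library per genotype. Piwil1 encodes a PIWI protein of male germ cells, and the heterozygous library served as the control, so no testis with both copies of Piwil1 intact was compared here. The labels give neither the strain of these mice, nor how the allele was made, nor whether animals were pooled. Small RNAs bound to PIWIL1 in adult wild-type testis, the other measurement of the series, were not used here.

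Each Sertoli cell supports many germ cells at once, giving them lactate, iron and growth factors and removing the cytoplasm they shed. Neighbouring Sertoli cells are joined by the blood-testis barrier, a belt of tight junctions that separates meiotic and later germ cells from the blood. Follicle-stimulating hormone from the pituitary and testosterone from the Leydig cells act on germ cells largely through Sertoli cells. PIWIL1 itself is a germ cell protein, so Sertoli cells are not where the protein normally acts.

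Levels were given as RPKM, read numbers divided by gene length and by library size, which allows genes of different length to be compared. The Piwil1+/- values had been divided by a total of 104014686 reads, and those of Piwil1-/- by 100254357. Piwil1 (chromosome 5, 128736071 to 128755474, GRCm38) had 26.2 RPKM in the Piwil1+/- library and was listed at 0 in the other, which matches the labels. With 1 library per genotype there was no replicate spread and no test. Intervals below are 95% counting intervals from read numbers recovered from the RPKM values. They cover counting error only, since copies made by PCR are not independent molecules, and animals of 1 genotype may differ by more. In whole testis, fewer cells of a type and less RNA per cell cannot be told apart.

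The 10 genes covered a wide range of levels. Clu was far above the rest, at 133 RPKM in both libraries, where 99.4% of all genes were lower. Trf followed at 10.2 RPKM in Piwil1+/- and 14.5 RPKM in Piwil1-/-. Gata1, Cldn11, Wt1 and Rhox5 lay between 2.17 and 3.81 RPKM in Piwil1+/- and between 2.27 and 3.69 RPKM in Piwil1-/-. Fshr and Gata4 were just under 1 RPKM. Amh and Sox9 were near the floor, under 0.1 RPKM in both libraries. Whether reads of such genes were lost before the table was made was not tested, so these values need not mean that the RNA was absent. Sox9 and Amh define this cell type in the fetal and juvenile testis, so of the defining markers these 2 were near 0 in both libraries, and the label rests on the other 8.

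**Figure D1:**
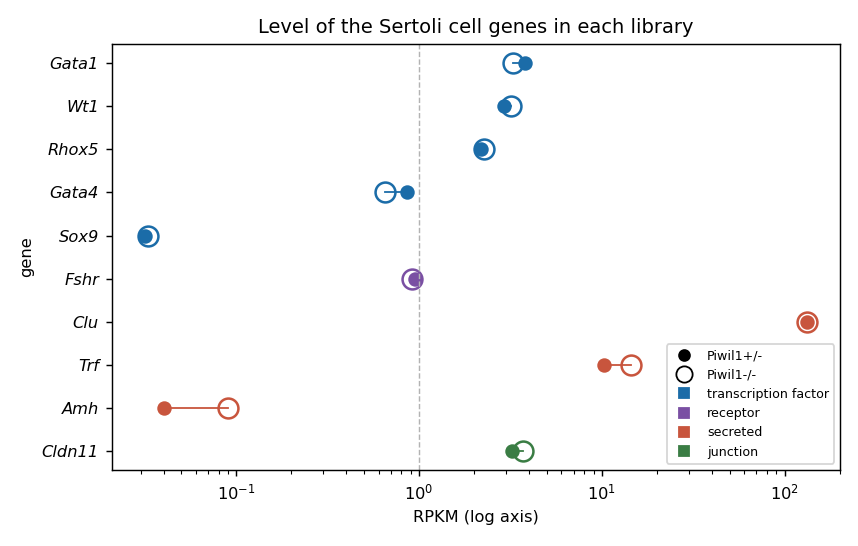
RPKM of the 10 Sertoli cell genes on a log axis, filled circles for the Piwil1+/- library and open circles for the Piwil1-/- library, coloured by the role of the product. The levels run from 0.0315 RPKM (Sox9, Piwil1+/-) to 133 RPKM (Clu), and the circles of a gene lie close together except for Amh, Trf and Gata4; the dashed line marks 1 RPKM.

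The order of the genes by level was almost the same in both genotypes. In Piwil1+/- it ran Clu, Trf, Gata1, Cldn11, Wt1, Rhox5, Fshr, Gata4, Amh and Sox9. In Piwil1-/- Cldn11 stood above Gata1, and no other pair had changed places. Counting intervals of neighbours overlapped in Piwil1+/- for Gata1 and Cldn11, for Cldn11 and Wt1, for Fshr and Gata4 and for Amh and Sox9. In Piwil1-/- they overlapped for Cldn11 and Gata1, for Gata1 and Wt1 and for Amh and Sox9. These intervals rest on the smallest read numbers that fit the values, for Cldn11 70 in Piwil1+/- and 77 in Piwil1-/-. They may therefore be too wide, and whether these neighbours could be put in order with the real read numbers was not tested.

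Among the transcription factors, both GATA factors were lower in Piwil1-/- testis. Gata1 (chromosome X, 7959260 to 7976663), a zinc finger factor of Sertoli cells, red blood cell precursors and some leukocytes, was at 3.81 RPKM in Piwil1+/- and 3.26 RPKM in Piwil1-/-. The ratio of Piwil1-/- to Piwil1+/- was 0.856 (interval 0.769 to 0.952), from at least 771 and 636 reads. Gata4 (chromosome 14, 63198914 to 63271712), a related factor of Sertoli and Leydig cells that takes part in forming the testis, was at 0.862 and 0.653 RPKM. Its ratio was 0.758 (interval 0.636 to 0.902), from at least 312 and 228 reads. Gata1 was 4.42-fold above Gata4 in Piwil1+/- and 4.99-fold above it in Piwil1-/-.

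Markers of red blood cells, Leydig cells and leukocytes were read beside the GATA factors, which some of these cells express. The leukocyte list was not chosen for those leukocytes that express Gata1. Of 7 red blood cell genes, 3 reached 1 RPKM in either library: the beta globins Hbb-bs (4.46 and 2.59 RPKM) and Hbb-bt (2.66 and 1.75 RPKM) and the heme synthesis enzyme Alas2 (2.68 and 2.24 RPKM). The interval lay below 1 for Hbb-bs and Alas2 and, at 0.386 to 1.10, included 1 for Hbb-bt. The median log2 ratio of RPKM + 1 over these 3 was -0.41. Hbb-bs and Hbb-bt are near-identical copies, so their split is uncertain. The summed level of the red blood cell genes was 10.6 RPKM in Piwil1+/- and 7.34 RPKM in Piwil1-/-. Klf1, a transcription factor of red blood cell precursors, was listed at 0 in both libraries. Leydig cell genes summed to 167 RPKM in Piwil1+/- and 142 RPKM in Piwil1-/-, and of the 9 that reached 1 RPKM the interval lay below 1 for 4 and above 1 for Hsd3b6. Among 5 leukocyte genes that reached 1 RPKM, the interval lay above 1 for Lyz2 (3.42 and 4.80 RPKM) and below 1 for none. Beside these counts for the 3 cell types, 26.8% of all genes that reached 1 RPKM and had recovered reads had an interval below 1, and 27.4% above 1. Insl3, a Leydig cell hormone, was listed at 0 in Piwil1+/- and at 0.0541 RPKM in Piwil1-/-. The part of red blood cells and leukocytes in the Gata1 difference, and of Leydig cells in the Gata4 difference, was not tested. Gata1 also overlaps Gm39488 and Gm52419, long non-coding RNA genes that have no row under these names in the table. The sources used here do not say whether counting used strand, and reads of overlapping genes then cannot be told apart.

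Of the remaining factors, Wt1 was slightly higher in Piwil1-/-, and the intervals of Rhox5 and Sox9 included 1. Wt1 (chromosome 2, 105126529 to 105173614), a zinc finger factor that Sertoli cells need to keep their identity, was at 2.93 RPKM in Piwil1+/- and 3.20 RPKM in Piwil1-/-. Its ratio was 1.09 (interval 1.03 to 1.15), with read numbers of 2562 and 2695 or more. The long non-coding gene Wt1os lies 18 bp from Wt1 and has no row of that name. Rhox5 (chromosome X, 37754608 to 37808878), a homeobox gene that Sertoli cells switch on under androgen, was at 2.17 and 2.27 RPKM. Its ratio of 1.04 had an interval of 0.884 to 1.23, which includes 1, from at least 288 and 290 reads. Sox9 (chromosome 11, 112782210 to 112787757), the factor that starts Sertoli cell fate in the fetal gonad, was at 0.0315 and 0.0327 RPKM. That was 3.28 reads per kilobase in each library, and with at least 5 reads in each the interval of its ratio ran from 0.239 to 4.51, too wide to compare the libraries. Wt1 was 92.9-fold above Sox9 in Piwil1+/- and 97.7-fold above it in Piwil1-/-.

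The receptor Fshr (chromosome 17, 88984952 to 89200675) receives follicle-stimulating hormone and within the testis marks Sertoli cells. It was at 0.948 RPKM in Piwil1+/- and 0.912 RPKM in Piwil1-/-. The ratio was 0.962 (interval 0.785 to 1.18), from at least 205 and 190 reads, so the libraries did not differ beyond counting error.

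The secreted products held the most abundant gene and the gene with the clearest difference. Clu (chromosome 14, 65968483 to 65981548) encodes clusterin, a chaperone-like glycoprotein that Sertoli cells release into the tubule. It was at 132.6 RPKM in Piwil1+/- and 132.97 RPKM in Piwil1-/-, from at least 67221 and 64988 reads. The ratio was 1.003 (interval 0.992 to 1.01), the narrowest among the 10 genes. Its log2 ratio passed from 0.0044 to -0.0015 after trimmed-mean rescaling and to -0.035 after rescaling to housekeeping genes. Clusterin is also made in the epididymis. The part of the epididymis in the Clu level was not tested. Of 8 genes of the epididymis and rete testis, Lcn5, Lcn8, Defb20 and Cdh16 were listed at 0 in both libraries, and the list summed to 14.8 RPKM in Piwil1+/- and 3.88 RPKM in Piwil1-/-, mostly from Cst8, which is also expressed in testis. The 2 that reached 1 RPKM had a median log2 ratio of -1.17, Cst8 at -1.85 and Rnase10 at -0.50.

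Trf (chromosome 9, 103208876 to 103230286) encodes transferrin, the iron carrier that Sertoli cells supply to germ cells inside the barrier. It was at 10.2 RPKM in Piwil1+/- and 14.5 RPKM in Piwil1-/-, a difference of 4.27 RPKM. The ratio was 1.42 (interval 1.36 to 1.48), from at least 3843 and 5250 reads. On the log2 (RPKM + 1) scale used for all genes, the Trf ratio was above 97.7% of the genes that reached 1 RPKM. Other cells also express Trf, and their part in the Trf difference was not tested. Clu stood 12.9-fold above Trf in Piwil1+/- and 9.16-fold above it in Piwil1-/-.

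Amh (chromosome 10, 80805240 to 80807679) encodes anti-Müllerian hormone, which immature Sertoli cells secrete and which is known to fall as they mature at puberty. It was at 0.0404 RPKM in Piwil1+/- and 0.0899 RPKM in Piwil1-/-, from at least 7 and 15 reads. The ratio of 2.22 was the highest among the 10 genes, yet its interval of 0.853 to 6.45 includes 1. At so few counted reads a difference in Amh was not detectable.

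Cldn11 (chromosome 3, 31149920 to 31164326) encodes claudin-11, the tight junction strand protein without which the blood-testis barrier does not form. It was at 3.24 RPKM in Piwil1+/- and 3.69 RPKM in Piwil1-/-. The ratio was 1.14, and its interval of 0.815 to 1.6 includes 1. That interval rests on the smallest read numbers that fit the values, 70 and 77, and real numbers that are multiples of these would narrow it.

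**Figure D2:**
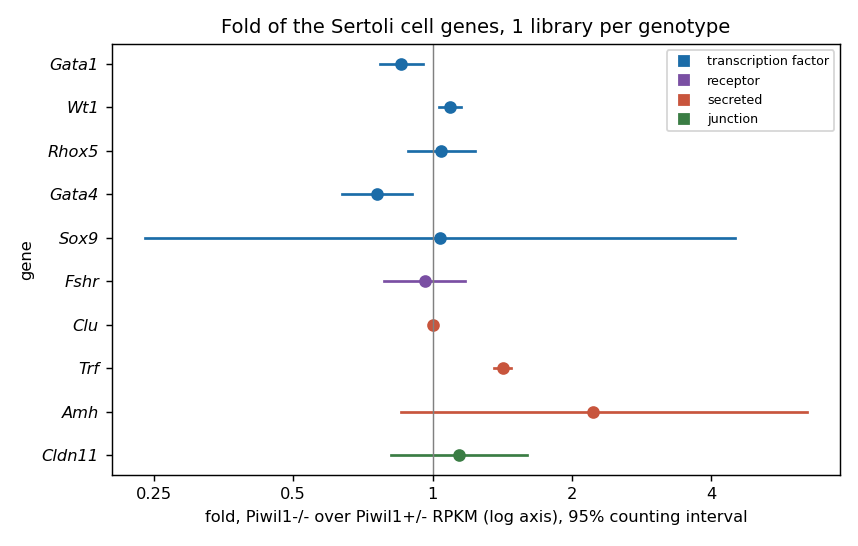
Ratio of the Piwil1-/- to the Piwil1+/- RPKM for each of the 10 genes on a log axis, with lines for the 95% counting interval of 1 library against 1 library. The intervals of Trf and Wt1 lie above 1 and those of Gata1 and Gata4 below 1, while those of Sox9 and Amh are wide because few reads fell on them.

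Across the 10 genes, the counting interval lay above 1 for Trf and Wt1, below 1 for Gata1 and Gata4, and included 1 for the other 6. Of the 10, 6 reached 1 RPKM in either library, namely Clu, Trf, Gata1, Cldn11, Wt1 and Rhox5. Among these 6 the interval lay above 1 for 2 genes and below 1 for 1. Such calls are common at this depth: among the 9925 genes that reached 1 RPKM and had recovered reads, 27.4% had an interval above 1 and 26.8% below 1, so these counts set the 6 markers apart in neither direction. On the log2 (RPKM + 1) scale, none of these was at least 2-fold higher, against 0.231% of the 9951 genes that reached 1 RPKM, and none was at least 2-fold lower, against 1.96%. At a looser limit, a log2 ratio of 0.32 on that scale, Trf alone of the 6 was past it on the higher side, where 5.81% of all genes were, and none was past it on the lower side, where 10.3% were. Of the 6 genes, 5 had a log2 ratio above 0, as had 51.2% of all genes. The median log2 ratio was 0.07 over the 6 genes and 0.02 over all 10, beside 0.0055 over all genes that reached 1 RPKM.

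**Figure D3:**
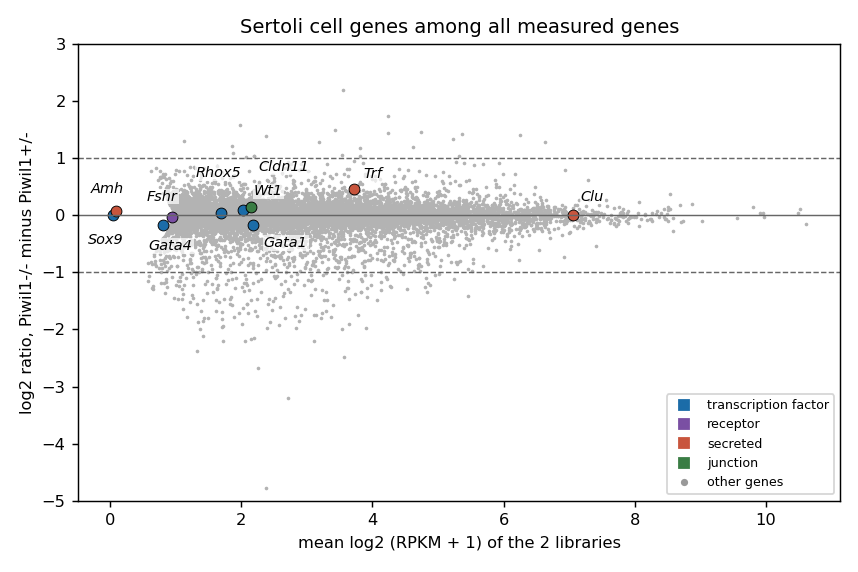
Log2 ratio of RPKM + 1, Piwil1-/- minus Piwil1+/-, against the mean log2 (RPKM + 1) of both libraries, with the 10 Sertoli cell genes coloured by role and every gene that reached 1 RPKM in grey. All 10 lie between the dashed lines of a 2-fold difference, Gata1 lowest at -0.17 and Trf highest at 0.46; the scale understates ratios of genes under 1 RPKM such as Amh.

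Transcription factors and products were then set side by side. The factors were at lower levels, with a median of 2.17 RPKM in Piwil1+/- over 5 genes, against 6.74 RPKM over the 4 secreted and junction genes. In Piwil1-/- the medians were 2.27 and 9.10 RPKM. Ratios of the factors ran from 0.758 (Gata4) to 1.09 (Wt1), with 3 of 5 above 1. Ratios of the products ran from 1.003 (Clu) to 2.22 (Amh), with 4 of 4 above 1. Over all genes that reached 1 RPKM, 51.2% were above 1. The counting interval included 1 for 3 of the 4 products, all but Trf, and for 2 of the 5 factors. The ranges of the ratios overlap, and the sign of the Clu ratio, which is near 0 on the log2 scale, changed with the scaling. The difference of the median log2 ratios, factors minus products, was -0.10 over the genes that reached 1 RPKM, with 3 genes in each group. Its counting interval, -0.37 to 0.16, included 0. The medians were those of Rhox5 and Cldn11, and this interval may be too wide, since the read numbers are the smallest that fit. Over all 9 genes the difference was -0.11. Summed levels followed the most abundant gene of each group. The factors summed to 9.81 and 9.41 RPKM and the products to 146 and 151 RPKM. Without Clu the products summed to 13.5 RPKM in Piwil1+/- and 18.3 RPKM in Piwil1-/-, most of it Trf.

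Gata1, Gata4, Sox9, Rhox5 and Cldn11 belong to larger gene families, taken here by symbol. Gata1 was the highest of 6 GATA genes in both libraries, and the 4 besides Gata1 and Gata4 were all under 0.5 RPKM. Gata2 was the highest of these 4 in Piwil1+/- (0.106 RPKM) and Gata6 in Piwil1-/- (0.0902 RPKM). Cldn11 was the highest of 23 claudins. The next was Cldn12 at 1.38 and 1.11 RPKM, and 10 claudins were listed at 0 in both libraries. Rhox5 was the highest of 34 Rhox genes of the X chromosome cluster in both libraries. The next was Rhox3h in Piwil1+/- (0.492 RPKM) and Rhox3e in Piwil1-/- (0.671 RPKM). Many Rhox genes are near-identical copies, so their values are uncertain. Sox9 was different: it ranked 8th of 19 Sox genes in Piwil1+/- and 7th in Piwil1-/-. Sox5 was the highest Sox gene in Piwil1+/- (10.5 RPKM, and 5.62 RPKM in Piwil1-/-), and Sox6 was the highest in Piwil1-/- (5.74 RPKM, and 7.41 RPKM in Piwil1+/-). Sox8, a close relative of Sox9 that Sertoli cells also express, was at 0.381 and 0.544 RPKM, 12.1-fold and 16.6-fold above Sox9.

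Promoter sequence was at hand for Gata1, Rhox5, Fshr and Cldn11, as the 250 bases before a gene start in RefSeq (GRCm38.p6). They are shown because these members, of like level except Fshr, include one that was lower (Gata1) and others whose intervals included 1. The windows were searched on both strands for motifs of factors active in Sertoli cells: GATA (written AGATAA or else AGATAG, with TGATAA and also TGATAG), SOX (written AACAAT or else AACAAAG), steroidogenic factor 1 (written CAAGGTCA or else CAAGGCCA), the cAMP response element (TGACGTCA) and the E-box CACGTG. Capitals mark each match, and all are written 5′ to 3′ on the strand of the gene.
Rhox5, chrX:37754358-37754607, plus strand: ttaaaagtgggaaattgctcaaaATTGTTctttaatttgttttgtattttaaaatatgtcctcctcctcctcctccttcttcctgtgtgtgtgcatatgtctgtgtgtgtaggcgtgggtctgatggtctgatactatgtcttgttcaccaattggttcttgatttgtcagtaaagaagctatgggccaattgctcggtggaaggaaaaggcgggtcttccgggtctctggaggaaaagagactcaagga
Fshr, chr17:89200676-89200925, minus strand: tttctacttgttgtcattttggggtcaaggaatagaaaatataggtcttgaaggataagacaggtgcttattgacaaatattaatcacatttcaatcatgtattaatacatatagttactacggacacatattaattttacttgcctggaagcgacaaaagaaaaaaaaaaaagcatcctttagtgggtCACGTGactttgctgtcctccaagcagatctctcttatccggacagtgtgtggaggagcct
Cldn11, chr3:31149670-31149919, plus strand: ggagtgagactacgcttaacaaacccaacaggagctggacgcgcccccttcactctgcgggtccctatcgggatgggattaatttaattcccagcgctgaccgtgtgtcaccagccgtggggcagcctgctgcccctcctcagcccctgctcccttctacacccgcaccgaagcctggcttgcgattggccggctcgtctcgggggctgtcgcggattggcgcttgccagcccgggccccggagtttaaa
Gata1, chrX:7967911-7968160, minus strand: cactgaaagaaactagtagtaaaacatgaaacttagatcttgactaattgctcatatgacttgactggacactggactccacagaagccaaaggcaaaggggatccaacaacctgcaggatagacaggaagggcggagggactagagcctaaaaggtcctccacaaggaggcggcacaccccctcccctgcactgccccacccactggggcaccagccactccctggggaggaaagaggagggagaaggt

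The Fshr window held the E-box CACGTG, which starts 61 bases before the gene start, and 6.02% of 32851 RefSeq promoter windows of the same length hold it. This window was AT-rich, with 36.8% G and C against a median of 52.4% over all windows. The Rhox5 window held a SOX match (ATTGTT, the reverse strand, 227 bases before the start), as did 13.8% of all windows. Rhox5 is known to have a distal and a proximal promoter, of which Sertoli cells use the proximal one, and the window lies at the outermost RefSeq start. The Cldn11 window, with 63.6% G and C, and the Gata1 window, with 54.0%, held none of these letters. The Gata1 window lies 8753 bp inside the RefSeq gene, and Sertoli cells are known to start Gata1 from an upstream first exon, so it may not be the start used in these libraries. GATA letters, found in 26.5% of all windows, were in none of the 4.

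Other genes of Sertoli cells were read from 8 lists by function, 87 genes in the table, of which 54 reached 1 RPKM. None of the 54 was at least 2-fold higher or lower on the log2 (RPKM + 1) scale. Of them, 36 had a log2 ratio above 0, 66.7% against 51.2% of all genes, with a median of 0.05. Inhbb, Slc2a1 and Krt8 reached 1 RPKM in Piwil1-/- alone, so their place among the 36 was fixed by that limit. Counting intervals lay above 1 for 38.9% of them and below 1 for 16.7%, beside the 27.4% and 26.8% of all genes given above. Some of these genes are also active in germ cells, so the lists do not mark Sertoli cells alone. Shares above 0 varied among lists of other cells, with 76.9% of meiotic prophase, 61.5% of housekeeping and 22.2% of Leydig genes. After rescaling to housekeeping genes the median of the 54 was 0.01. The 3 genes nearest in log2 ratio to the median of the 10 markers were Serpina5, a secreted protease inhibitor (0.03), Slc16a1, a lactate transporter (0.02), and Slc2a3, a glucose transporter (0.03). With 2 libraries a pattern is 1 ratio, which many genes share.

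Secreted products were described first. Of 10 genes of hormones, growth factors and other secreted proteins, 9 had a log2 ratio above 0, with a median of 0.13, and the interval lay above 1 for 6 and below 1 for none, beside 27.4% and 26.8% of all genes. Inhbb, an inhibin subunit counted among them, reached 1 RPKM in Piwil1-/- alone (0.739 and 1.02 RPKM), so its direction was fixed by that limit. Tsx, a testis-specific X-linked gene placed on this list, was highest, at 3.01 RPKM in Piwil1+/- and 4.17 RPKM in Piwil1-/-. Whether Tsx gives a secreted product was not checked, so its place on the list is uncertain. The cystatins Cst9 (26.0 and 29.1 RPKM) and Cst12 (39.7 and 43.7 RPKM), both of Sertoli cells, and the secreted protease cathepsin L, Ctsl (93.7 and 100.3 RPKM), each had an interval above 1. Inha, the inhibin alpha subunit that carries feedback to the pituitary, was at 4.83 and 5.35 RPKM, and Kitl, the ligand that spermatogonia need, at 3.05 and 3.55 RPKM. Shbg, which encodes the androgen-binding protein, had the lowest ratio, at 2.60 and 2.49 RPKM. Gdnf, the factor that maintains spermatogonial stem cells, was listed at 0 in both libraries.

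Junction and adhesion genes had ratios on both sides of 1. Of 13 that reached 1 RPKM, 5 had a log2 ratio above 0 and 8 below, beside 51.2% of all genes above 0, with a median of -0.07. The interval lay above 1 for 4 of the 13 and below 1 for 3, beside 27.4% and 26.8% of all genes. Tjp1, the scaffold ZO-1 that binds claudins, was highest, at 15.9 RPKM in Piwil1+/- and 17.6 RPKM in Piwil1-/-. Occludin, Ocln, was at 4.86 and 4.59 RPKM, and connexin 43, Gja1, at 5.48 and 5.07 RPKM. Cdh2, the N-cadherin that joins Sertoli and germ cells, was lowest, at 13.2 and 10.2 RPKM, a ratio of 0.774 (interval 0.727 to 0.823). The adhesion gene Jam2 was at 6.53 and 5.06 RPKM. Cldn3, an androgen-dependent claudin of the barrier, and Cldn5 were under 0.03 RPKM in both libraries, so Cldn11 was the claudin of these barrier genes with a measurable level.

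Metabolic and other support genes went both ways. Of 9 genes of glucose and lactate supply, 7 were above 0, beside 51.2% of all genes, with a median of 0.03. Slc2a8, a glucose transporter, had the highest ratio (2.19 and 3.79 RPKM), and Hk1, a hexokinase with a form made in spermatogenic cells, had the lowest (156 and 93.4 RPKM). Of 8 engulfment and lipid genes, 5 were above 0 (median 0.03), from Mertk, the receptor for engulfing dying germ cells (1.6 and 1.97 RPKM), to Scarb1, a receptor for lipid uptake (15.9 and 12.7 RPKM). Retinoid genes had a median of 0.09 over 4 genes, with Rdh10, a retinol dehydrogenase, lowest at 2.15 and 1.07 RPKM (a ratio of 0.498 without the added 1) and Rxrb, a retinoid receptor, highest at 1.63 and 1.96 RPKM. Of the other regulators, 2 reached 1 RPKM, Etv5 at 2.41 and 2.50 RPKM and Dmrt1 at 1.91 and 1.89 RPKM.

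Markers of the immature or dividing Sertoli cell were read beside Amh. Of these, 4 reached 1 RPKM, with a median log2 ratio of 0.15. The interval lay above 1 for 2 of them, Mki67 and Ncam1, and below 1 for none, beside 27.4% and 26.8% of all genes. Mki67, a gene of dividing cells in general, had the highest ratio (15.9 and 19.5 RPKM). The interval included 1 for Thra, a thyroid hormone receptor (1.32 and 1.34 RPKM), and for Krt8, a keratin (0.953 and 1.11 RPKM), whose direction the limit of 1 RPKM fixed. Keratin 18, Krt18, which immature Sertoli cells express, was at 0.0453 and 0.0314 RPKM. Of the cytoskeletal genes, Vim, the vimentin of Sertoli cells and other somatic cells, was at 14.5 and 15.3 RPKM, Tubb3 was highest in ratio (5.37 and 6.08 RPKM) and Actb lowest (129 and 119 RPKM), with a median of -0.01 over 4 genes.

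Larger shifts of the median than in the Sertoli lists were found in the spermatid lists. The 11 elongating spermatid genes had a median of -1.28, from Odf2 (-0.27) to Cabs1 (-2.47), and the 14 round spermatid genes one of -0.75, from Fhl5 (-1.35) to Tex101 (1.29). Prm2, Spem1, Tnp2 and Smcp of the elongating spermatid list reached 1 RPKM in Piwil1+/- alone, so their direction was fixed by that limit, as was that of the leukocyte gene C1qb in Piwil1-/-. Lists of earlier germ cells had medians of 0.05 over 13 meiotic prophase genes (Rec8 at -0.20, Mlh3 at 0.22) and 0.04 over 5 spermatogonial genes (Uchl1 at -0.08, Stra8 at 0.09). Among other somatic cells, Leydig genes had a median of -0.13 over 9 genes (Cyp11a1 at -0.31, Hsd3b6 at 0.20), peritubular and smooth muscle genes 0.02 over 6 (Actg2 at -2.20, Acta2 at 0.14) and leukocyte genes 0.10 over 5 (Adgre1 at -0.02, Lyz2 at 0.39). Of the endothelial genes 1 reached 1 RPKM, Cdh5 at -0.02. Housekeeping genes had a median of 0.03 over 13 genes, with Gusb highest at 0.30. The Sertoli median of 0.07 thus lay within the range of the lists of other cells with 4 or more genes, spermatids left out, from -0.13 (Leydig) to 0.10 (leukocyte). Shorter lists lay lower, with medians of -0.41 over 3 red blood cell genes and -1.17 over 2 epididymis and rete testis genes. As RPKM values are shares of a library, a gene can be higher because others are lower. The trimmed-mean factor between the libraries was 1.004, and the housekeeping factor was 1.03.

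**Figure D4:**
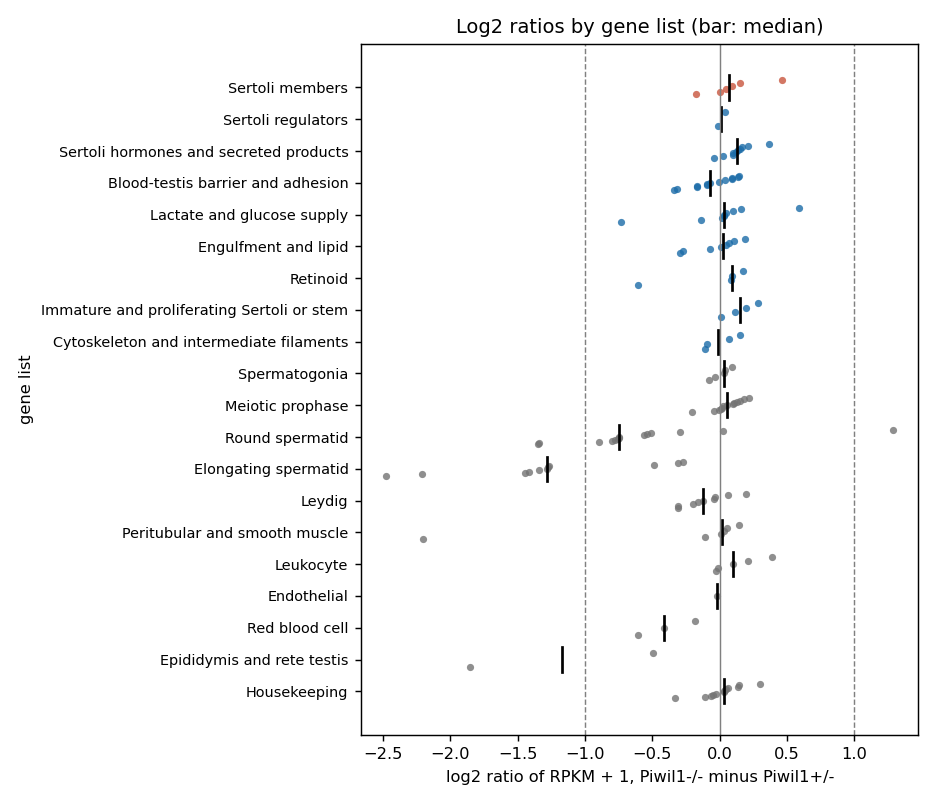
Log2 ratio of RPKM + 1, Piwil1-/- minus Piwil1+/-, for each gene that reached 1 RPKM, by list, with a black bar at the list's median and dashed lines at a 2-fold difference. The 6 Sertoli markers (red) and the wider Sertoli lists (blue) lie around 0. The spermatid lists are shifted to the left, as are the short red blood cell and epididymis lists.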

How the data were processed

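Directional libraries, 1 per genotype, were made from testis RNA without ribosomal RNA at postnatal day 23, per the labels' protocols. Samples were grouped by the genotype in the labels. The authors deposited RPKM values for 22808 gene identifiers, per the file headers. Bowtie, STAR and the build mm10 are named in the submitters' processing notes; not given in the sources used here is what each of these did, or how reads were assigned to genes. The submitters' small RNA table was not used.

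Symbols were found for 22444 identifiers; coordinates and promoters are those of RefSeq for GRCm38.p6, the build also called mm10. Each log2 ratio is log2 (RPKM + 1) in Piwil1-/- less the same in Piwil1+/-, over the 9951 genes at 1 RPKM or more in either library. Called means at least 2-fold, or 1.25-fold, on that scale. The library totals were read from the steps between low values and from 24 genes whose RefSeq span under 1500 bp is their length. The smallest gene length up to 40000 bp that gives whole reads in both libraries then gave read numbers for 16528 of 16558 genes above 0 in both, 99.8%. They are lower bounds, since a factor shared by reads and length is lost. Ratios have exact binomial 95% intervals and levels exact Poisson ones. No test or p-value was possible. The steps were tested on simulated data.

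Named genes are Piwil1, all 10 markers, genes of the wider Sertoli lists and the highest and lowest of each other list. Outside that rule, the family members and Klf1, Hbb-bt, Insl3, Lcn5, Lcn8, Defb20, Cdh16, Krt18, Gdnf, Cldn3, Cldn5, Prm2, Spem1, Tnp2, Smcp and C1qb were named after their values had been seen. Some genes and 1 searched motif are not reported here. Markers and lists were chosen with earlier results of these data known. Alternatives were pseudocounts of 0.1 and 0.01 RPKM, no filter or 5 RPKM, trimmed-mean (30% at each end) and housekeeping rescaling, the markers without Gata1, Trf, Clu and Gata4, which other cells express, and the factors without Rhox5. Of the listed genes, Cyr61 and Eppk1 were not matched. Python 3.11.15, numpy 2.4.6, pandas 2.3.3, scipy 1.17.1 and matplotlib 3.10.9 were used.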

Additional observations from a re-analysis of the deposited data

How the results depend on the processing

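No paired analysis was possible because each genotype has 1 library. No library could be left out for the same reason. The median log2 ratio of the 6 markers at 1 RPKM or more was 0.23 with a limit of 5 RPKM, where Clu and Trf alone are left and the difference between factors and products could not be formed. The number of markers with a log2 ratio of 0.32 or more went from 1 to 0 without Gata1, Trf, Clu and Gata4, since Trf is the gene that was called. A change of pseudocount or of the RPKM limit cannot change the sign of a marker's log2 ratio. Under trimmed-mean and housekeeping rescaling, which can, every marker kept its sign, Clu excepted, as given with its values. Gata4 went from -0.17 to -0.39 and Amh from 0.07 to 0.99 with a pseudocount of 0.01 RPKM, as both lie under 1 RPKM. The difference between factors and products stayed below 0 in each alternative that gave a value, and was -0.19 without Rhox5. Its counting interval in the main setting, where the medians are those of Rhox5 and Cldn11, was -0.37 to 0.16 and included 0. That interval rests on the smallest read numbers that fit the values, so it may be too wide. Whether the real read numbers would settle the sign of the difference was not tested. With fewer than 20 reads a library, Sox9 and Amh allow no statement on a difference.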
